A study of Rattus norvegicus with 30 samples.

Results

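Interferon-stimulated genes were followed in RNA sequencing of CD31-positive rat lung cells. The members were taken by name, as the table rows for 35 such genes among 30562 rows. The rule uses no measured value, but the list was chosen with earlier results of these data known. Of the 35, 34 passed the filter on low counts that 16171 genes of the table passed. Zbp1, a sensor of left-handed nucleic acid, did not: its estimated counts ran from 0 to 16 per library, with 12 libraries at 0 and 5 at 10 or more, so it was not tested.

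Lung cells were enriched by microbeads that capture CD31, which marks endothelium, at 3 weeks after surgery. The Glenn operation (superior cavopulmonary anastomosis) sends blood of the upper body straight into a lung artery. Sham surgery was the control, and the design sets 3 vitamin A diets (control, deficient and excess) beside each operation. There were 6 groups of 5 libraries, namely sham or Glenn surgery with each diet, and all animals were labelled wild-type. No label says whether the 5 libraries of a group came from 5 animals, so p-values measure the spread between libraries, which may be technical.

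Library totals ran from 22029035 to 77647586 estimated counts. Levels are given in CPM, the usual counts scaled to library size, here after TMM scaling for composition. The library names fall in 2 number ranges. Series A, with names in the 300s, holds 22 libraries, and series B, with names from 598 to 606, holds 8. Series B occurs only in the sham deficient group (replicates 3 to 5), the Glenn deficient group (replicates 4 and 5) and the Glenn excess group (replicates 3 to 5). Libraries also differed in the major histocompatibility gene RT1-CE16, which was above 100 CPM in all 8 series B libraries and in 5 of series A, and below that in the other 17. All 10 endothelial markers examined were expressed in every library, among them Pecam1, which encodes CD31, at 863 to 1730 CPM. Of 19 leukocyte markers in the table, Cd3e, Cd3g, S100a8, Siglech, Marco and Xcr1 had medians of 0 to 0.0553 CPM, and Ptprc, which all leukocytes carry, was at 0.569 to 18.9 CPM. Markers of the macrophage lineage were present in every library, with Cd14 at 30.9 to 89.3, Csf1r at 6.9 to 49.5, Mrc1 at 4.21 to 18.5 and Cd68 at 2.5 to 9.45 CPM, and Lyz2, which lung epithelium also expresses, was at 8030 to 24400 CPM.

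Interferons are secreted proteins by which cells announce infection or damage. Type I interferons bind the receptor of Ifnar1 and Ifnar2, which activates the kinases Jak1 and Tyk2 and then a complex that holds Stat2 and Irf9. That complex binds a promoter sequence, the interferon-stimulated response element, and raises genes that block viral replication at many steps. Interferon gamma acts through Ifngr1 and Ifngr2 and another promoter sequence, the gamma-activated site. Endothelial cells respond to both kinds, and some of these genes, such as Irf1, Cxcl10 and the guanylate-binding proteins, are also raised by other inflammatory signals.

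Promoters of 26 of the 35 members were matched by symbol in RefSeq's rat assembly GRCr8, each as 300 bases from 250 before to 50 after the annotated start. Those of Dhx58, Ifit1, Ifit2, Isg15, Mx2, Oas2, Rtp4, Usp18 and Zbp1 were not used. The core of the response element, GAAA, any 2 bases, then GAAA, searched on either strand with overlapping matches allowed, was present in 16 of the 26 (61.5%), against 1034 of 27457 promoters of the same length in the assembly (3.77%). The gamma-activated core, TTCNNNGAA, which reads alike on both strands, was present in 5 of 26 (19.2%), against 8.68% of all promoters. A match describes these letters and is not evidence of binding. Below are the matched promoters of the 3 members that were higher after Glenn surgery (Ifit3, Gbp2 and Cxcl10) and of 3 that were lower (Bst2, Parp14 and Irf9), each 5′ to 3′ along the gene's strand with the response-element core in capitals. They lie at chr1:241527076-241527375 (plus strand) for Ifit3, chr2:234005477-234005776 (plus) for Gbp2, chr14:15988816-15989115 (plus) for Cxcl10, chr16:18254918-18255217 (minus) for Bst2, chr11:78407884-78408183 (plus) for Parp14 and chr15:33065586-33065885 (plus) for Irf9.
Ifit3: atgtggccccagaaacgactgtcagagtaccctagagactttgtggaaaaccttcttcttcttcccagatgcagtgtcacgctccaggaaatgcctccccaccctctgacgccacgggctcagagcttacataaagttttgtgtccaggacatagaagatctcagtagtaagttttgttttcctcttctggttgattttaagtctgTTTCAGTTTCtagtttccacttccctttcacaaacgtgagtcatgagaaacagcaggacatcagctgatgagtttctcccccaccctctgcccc
Gbp2: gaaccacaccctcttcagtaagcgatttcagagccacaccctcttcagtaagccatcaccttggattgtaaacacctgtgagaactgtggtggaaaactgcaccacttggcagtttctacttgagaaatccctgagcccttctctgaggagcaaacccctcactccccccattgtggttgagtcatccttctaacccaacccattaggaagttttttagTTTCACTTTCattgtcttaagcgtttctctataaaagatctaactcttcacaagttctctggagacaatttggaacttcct
Cxcl10: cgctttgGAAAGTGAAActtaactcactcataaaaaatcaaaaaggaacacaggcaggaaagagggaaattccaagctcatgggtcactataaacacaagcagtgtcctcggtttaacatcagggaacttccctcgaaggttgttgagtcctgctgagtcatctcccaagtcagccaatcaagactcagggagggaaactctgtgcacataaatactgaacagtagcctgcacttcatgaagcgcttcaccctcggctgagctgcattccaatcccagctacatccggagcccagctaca
Bst2: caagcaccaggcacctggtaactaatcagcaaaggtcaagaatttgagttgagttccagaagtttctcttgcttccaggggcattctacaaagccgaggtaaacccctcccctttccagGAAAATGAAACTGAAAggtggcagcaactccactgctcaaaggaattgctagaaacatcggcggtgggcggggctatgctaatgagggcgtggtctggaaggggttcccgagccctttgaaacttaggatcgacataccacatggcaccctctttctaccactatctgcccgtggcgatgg
Parp14: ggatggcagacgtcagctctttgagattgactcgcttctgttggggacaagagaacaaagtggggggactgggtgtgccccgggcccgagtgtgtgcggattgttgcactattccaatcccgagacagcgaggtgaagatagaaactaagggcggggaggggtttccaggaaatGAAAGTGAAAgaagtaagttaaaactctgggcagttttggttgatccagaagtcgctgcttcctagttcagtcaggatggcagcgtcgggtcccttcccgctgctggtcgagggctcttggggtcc
Irf9: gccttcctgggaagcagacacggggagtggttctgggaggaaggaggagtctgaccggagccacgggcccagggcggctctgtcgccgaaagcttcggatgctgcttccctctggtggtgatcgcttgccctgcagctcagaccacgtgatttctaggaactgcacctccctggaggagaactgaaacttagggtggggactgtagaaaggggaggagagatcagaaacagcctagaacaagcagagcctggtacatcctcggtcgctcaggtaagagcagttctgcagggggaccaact

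The core began 44 bases before the start in Ifit3, 31 before it in Gbp2 and 243 before it in Cxcl10. In Bst2 there were 2 overlapping cores, from 131 and 125 bases before the start, and in Parp14 the core began at 76 bases before it. The Irf9 promoter held no match in this window. Of the matched members that were higher after Glenn surgery, 3 of 3 held the core, and of those that were lower, 5 of 11 did. Among the other matched members, called in neither direction, 8 of 12 held it. The 6 lower members without a match were Cmpk2, Herc6, Ifi35, Irf9, Stat2 and Trim25. The gamma-activated core was found in none of the 3 higher, in 4 of the 11 lower and in 1 of the 12 other members.

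The first question was how the operation altered these genes. Averaged over the 3 diets, interferon-stimulated genes fell more often than they rose after Glenn surgery. Of the 34 tested, 17 fell and 4 rose (edgeR quasi-likelihood test, Benjamini-Hochberg adjusted p under 0.05). Among all 16171 genes, 24.7% fell and 23.4% rose, 48.2% in all. Of the members 61.8% were called, and 27 of 34 had a log2 change below 0, as had 52% of all genes. The median log2 change was -0.31 for the members and -0.01 for all genes. The members that fell included the transcription factor Irf9, the ubiquitin ligases Herc6 and Trim25 and the membrane tether Bst2. Those that rose were the chemokine Cxcl10, the antiviral proteins Ifit3 and Ifit2 and the guanylate-binding protein Gbp2. Since these are bulk libraries, fewer cells of a type and less RNA per cell cannot be told apart.

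**Figure D1:**
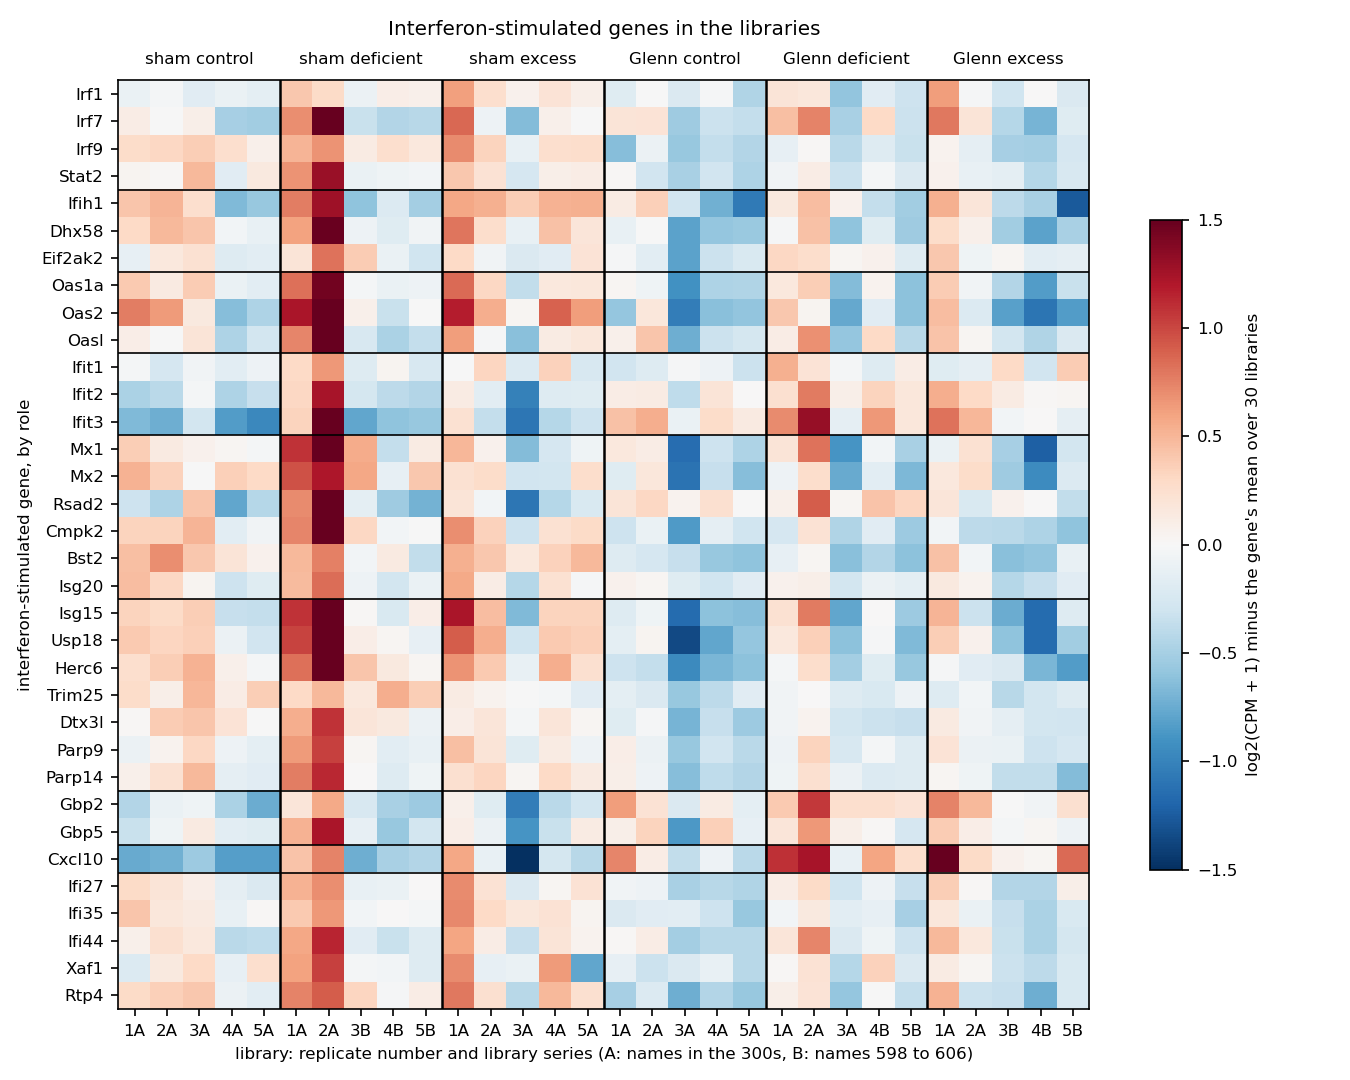
Heatmap of the 34 tested interferon-stimulated genes (rows, ordered by role) in the 30 libraries (columns, by group, with replicate number and series A or B). Colour is log2(CPM + 1) minus the gene's mean over the 30 libraries, from -1.5 (blue) to 1.5 (red). Sham deficient replicate 2 is the reddest column, and Ifit2, Ifit3, Gbp2 and Cxcl10 are bluer in most sham than in most Glenn libraries.

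Among the regulators, Irf9, the DNA-binding subunit of the complex at the response element, was at 62.8 to 112 CPM in the 15 sham libraries (median 81.6) and at 43.3 to 70.5 CPM in the 15 Glenn libraries (median 53.7). Of the Glenn libraries, 3 reached into the sham range. Irf9 fell by 0.56 on the log2 scale (SE 0.0686, edgeR adjusted p 7.02e-08). Stat2, its partner, fell by 0.34 (edgeR adjusted p 0.00623), from a median of 154 to 125 CPM. The factor Irf7, which amplifies the type I response, had a change of 0.06 (edgeR adjusted p 0.794), and Irf1, induced by interferon gamma, one of -0.14 (edgeR adjusted p 0.141). Of 4 regulators, 2 fell and 0 rose, against 24.7% and 23.4% of all genes.

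Among the sensors of viral RNA, Dhx58, a regulatory helicase, fell by 0.50 (edgeR adjusted p 0.00191), with medians of 49.2 CPM in sham and 28.8 CPM in Glenn libraries. Ifih1, the sensor of long double-stranded RNA, had a change of -0.28 (edgeR adjusted p 0.118). Eif2ak2, the kinase that halts translation, had a change of -0.09 (edgeR adjusted p 0.419). Of the oligoadenylate synthetases, whose product switches on RNA decay, Oas2 fell by 0.75, the largest fall among the members, and Oas1a by 0.42 (edgeR adjusted p 0.00102 and 0.0155). Oas2 was at 10.3 to 50.8 CPM in sham (median 24.7) and 7.25 to 23.3 CPM in Glenn libraries (median 10.7), and these ranges overlapped widely. Oasl, with a change of -0.06, did not pass the threshold.

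Of the 3 Ifit genes, whose proteins bind foreign RNA, 2 rose and 0 fell (23.4% and 24.7% of all genes). Ifit3 was at 53.8 to 429 CPM after sham surgery with a median of 77.5, and at 105 to 288 CPM after Glenn surgery with a median of 140. A single sham library, at 429 CPM, stood above all Glenn libraries. Ifit3 rose by 0.80 on the log2 scale (SE 0.185, edgeR adjusted p 8.44e-04), and Ifit2 by 0.42 (edgeR adjusted p 0.00525). With the 22 series A libraries alone the log2 change was 0.48 for Ifit3 (edgeR adjusted p 0.0832) and 0.20 for Ifit2 (edgeR adjusted p 0.281), neither past the threshold, and Ifit2 (0.31) also missed it with no series term. Ifit1 was barely counted, at 0 to 34 estimated counts per library with a median of 7.5.

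Of 6 antiviral effectors, 3 fell, as did 24.7% of all genes. Bst2, which tethers budding virus to the cell surface, was at 250 to 550 CPM in sham (median 429) and 209 to 439 CPM in Glenn libraries (median 256). It fell by 0.55 (edgeR adjusted p 2.81e-06). Cmpk2, a mitochondrial nucleotide kinase, fell by 0.59 (edgeR adjusted p 2.67e-04), and the GTPase Mx2 by 0.53 (edgeR adjusted p 9.47e-04), from a median of 219 to 155 CPM. Mx1, its relative, had a change of -0.39 (SE 0.195, edgeR adjusted p 0.105), short of the threshold. The exonuclease Isg20 (-0.19) and Rsad2 (0.33), an enzyme that makes a chain-ending nucleotide, did not pass it either.

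The group of ISGylation, ubiquitin and ADP-ribosylation genes held the most calls in 1 direction, with 6 of 7 lower (24.7% of all genes). Herc6, the rodent ligase that attaches the ubiquitin-like protein Isg15 to its targets, was at 165 to 511 CPM in sham libraries (median 231) and at 91 to 214 CPM in Glenn libraries (median 139). It fell by 0.71 (SE 0.108, edgeR adjusted p 3.74e-06). Trim25, the ligase that activates the RNA sensor RIG-I, fell by 0.42 (edgeR adjusted p 1.38e-07), from a median of 72.6 to 56.6 CPM. Dtx3l and Parp14 fell by 0.40 and 0.35, and Usp18, the protease that removes Isg15, fell by 0.59 (edgeR adjusted p 4.79e-05, 0.00128 and 0.00359). Isg15 itself fell by 0.53 (edgeR adjusted p 0.0281), a call lost on leaving out Glenn deficient replicate 3, sham excess replicate 1 or Glenn excess replicate 2 (highest adjusted p 0.0629). Parp9 had a change of -0.21 and an edgeR adjusted p of 0.0571.

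Gbp2, a GTPase that attacks vacuoles holding pathogens, was at 136 to 416 CPM in sham libraries (median 232) and 241 to 585 CPM in Glenn libraries (median 332). It rose by 0.63 (SE 0.108, edgeR adjusted p 2.22e-05). Gbp5 had a change of 0.21 (edgeR adjusted p 0.195). Cxcl10, which draws T cells, was at 7.57 to 41 CPM in sham (median 16.8) and 17.9 to 75 CPM in Glenn libraries (median 28.9), and rose by 0.94, the largest rise of the members (edgeR adjusted p 1.74e-04). Of 5 other induced genes, the chaperone-like receptor transporter Rtp4 fell by 0.50, Ifi35 by 0.36 and the mitochondrial protein Ifi27 by 0.23 (edgeR adjusted p 6.73e-04, 4.88e-05 and 0.0306). The Ifi27 call was lost without any 1 of 6 libraries (highest adjusted p 0.0684). Ifi44 and Xaf1, at -0.08 and -0.28, did not pass. No member separated all 15 Glenn from all 15 sham libraries, while 2.73% of all genes lay wholly lower and 3.1% wholly higher after Glenn surgery.

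**Figure D2:**
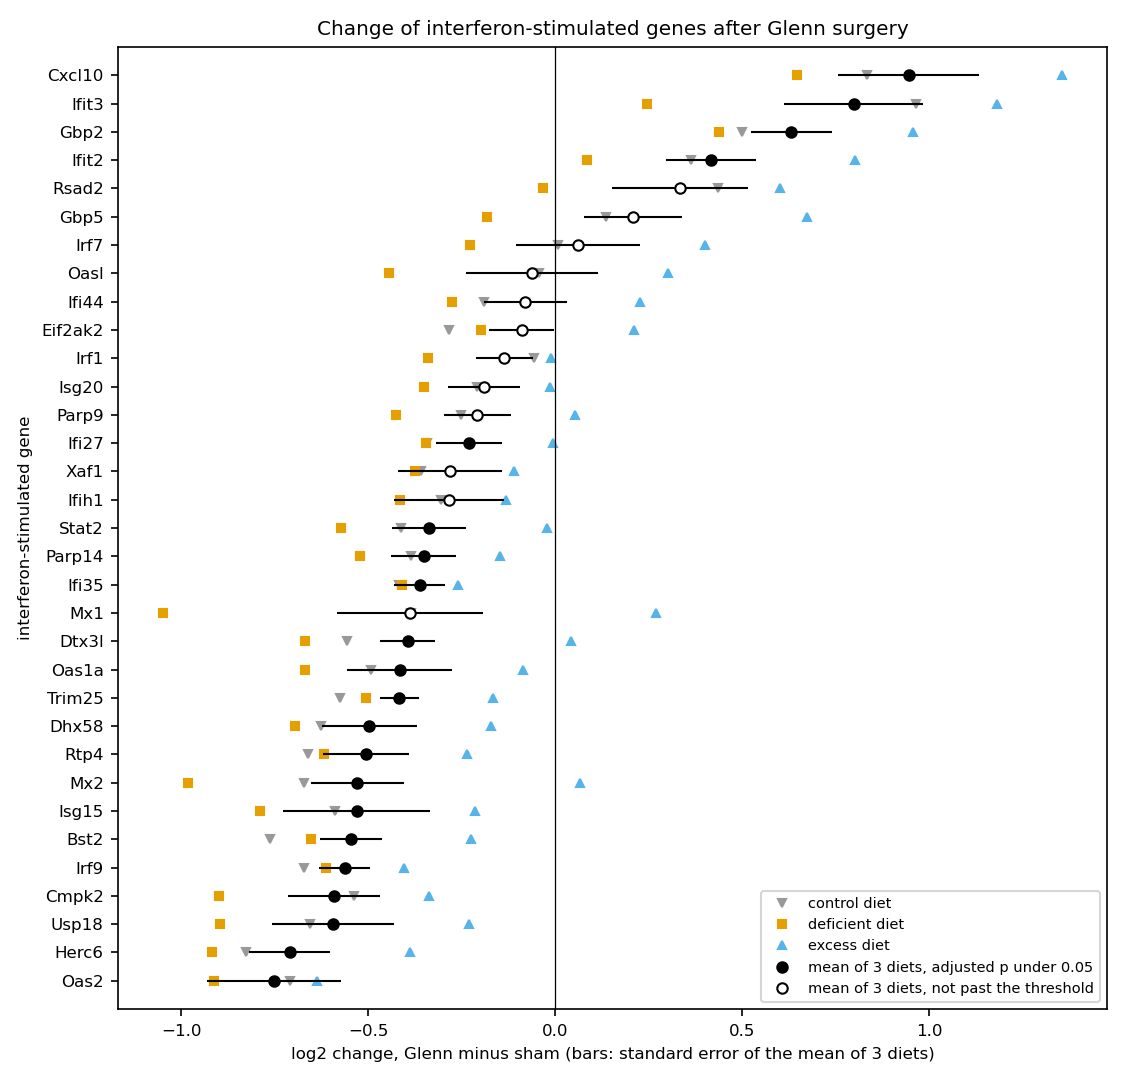
Log2 change from sham to Glenn surgery for 33 tested members (Ifit1, with hardly any counts, is left out), on the x axis. Black and white circles are the mean of 3 diets with its standard error, filled where the adjusted p was under 0.05, and coloured symbols are the single diets. Cxcl10, Ifit3, Gbp2 and Ifit2 lie at the top, from 0.42 to 0.94, and Oas2 at the bottom, at -0.75.

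Markers of cell types were compared between the operations as the mean over diets, where 24.7% of all genes fell and 23.4% rose. The summed level of the 10 endothelial markers was 9480 to 11700 CPM in sham and 6810 to 9770 CPM in Glenn libraries, with 6 markers lower and 3 higher. All 10 mural markers rose, with sums of 167 to 342 CPM in sham and 493 to 1710 CPM in Glenn libraries, and 8 of 10 fibroblast markers and 10 of 10 proliferation markers rose. Of 10 tested epithelial markers 3 fell and 2 rose, near the shares of all genes. The sum of the 11 in the table was 35900 to 61200 CPM in sham (median 44400) and 26300 to 57500 CPM in Glenn libraries (median 32500). All 3 erythroid markers rose, with sums of 2.12 to 11.1 CPM in sham and 2.94 to 195 CPM in Glenn libraries. Of 15 tested leukocyte markers 2 rose and 2 fell, below the shares of all genes. Without Lyz2 the sum of 18 leukocyte markers was 83.8 to 164 CPM in sham and 80.2 to 136 CPM in Glenn libraries. The part of these shifts in the members' changes was not tested.

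On the control diet, where all 10 libraries are of series A, the falls of Irf9, Bst2, Herc6, Trim25 and Dtx3l and the rise of Ifit3 were separated by library. In all, 9 members fell and 2 rose (11 of 34, against 24.9% of all genes called, 13.1% lower and 11.8% higher), with a median log2 change of -0.39. Irf9 was at 82.8, 84.5, 88.1, 80.9 and 71.6 CPM in the sham libraries and at 43.3, 64, 45.7, 53 and 50 CPM in the Glenn libraries. Every Glenn library was lower than every sham library, and Irf9 fell by 0.67 (edgeR adjusted p 5.64e-05). Bst2 was at 442, 526, 431, 372 and 340 CPM in sham replicates 1 to 5 and 284, 272, 256, 218 and 213 CPM in Glenn replicates 1 to 5, again with no overlap, and fell by 0.76 (edgeR adjusted p 1.23e-04). In the other direction, Ifit3 was at 72.5, 69.1, 95.1, 64.1 and 58.8 CPM in sham replicates 1 to 5 and 157, 169, 108, 140 and 127 CPM in Glenn replicates 1 to 5. It rose by 0.97 (SE 0.305, edgeR adjusted p 0.0209), a call lost without sham control replicate 5 (log2 change 0.90), with no series term (0.97) and with RT1-CE16 in place of the series (0.83).

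The other members called lower on the control diet were Trim25, Herc6, Dtx3l, Ifi35, Rtp4, Mx2 and Dhx58, with log2 changes of -0.83 for Herc6 to -0.42 for Ifi35. Gbp2 rose by 0.50 (edgeR adjusted p 0.0465), a call that only 4 of 11 alternative settings and 14 of 30 fits without 1 library kept. Cxcl10, with no overlap between the groups either (13.1 to 16.1 CPM against 17.9 to 40.4 CPM), had a change of 0.83 and an edgeR adjusted p of 0.058. Glenn libraries lay wholly below sham libraries in 7 members (9.41% of all genes) and wholly above them in Ifit3 and Cxcl10 (7.78% of all genes).

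On the vitamin A-deficient diet 17 members fell and 0 rose, with a median log2 change of -0.43, while 27.4% of all genes were called (13.7% in each direction). Trim25 was at 80, 91.4, 72.6, 95.5 and 84.4 CPM in sham replicates 1 to 5 and 62.9, 65.5, 56.9, 55.3 and 61.8 CPM in Glenn replicates 1 to 5. These did not overlap, and Trim25 fell by 0.51 (SE 0.0916, edgeR adjusted p 9.42e-05). Irf9, the other member without overlap (2 of 34 lay wholly lower and 0 wholly higher, against 9.59% and 10% of all genes), fell by 0.61 (edgeR adjusted p 1.96e-04). Mx1 had the largest fall on this diet, 1.05 (SE 0.324, edgeR adjusted p 0.017), with sham libraries at 134, 327, 92.3, 48.6 and 67.9 CPM and Glenn libraries at 71.7, 111, 33.4, 60.6 and 44.4 CPM. The groups overlapped, and the highest value, 327 CPM, was that of sham deficient replicate 2.

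The deficient-diet count rested in part on that library. Without it 8 members fell and 2 rose (2 also rose without Glenn deficient replicate 3, and 1 without sham excess replicate 3). The falls of Mx1, Dhx58, Oas1a, Oas2, Parp9, Parp14, Stat2, Usp18 and Rtp4 then no longer passed the threshold. For fits without 1 library, here and below, the share of all genes called is not given, so these counts cannot be set against it. Both series occur on this diet after both operations. Among series A libraries alone (2 sham and 3 Glenn) 19 members fell, with a median of -0.84, and 15.2% of all genes were called in either direction. Among series B libraries alone (3 sham and 2 Glenn) the median was -0.14, Irf9, Trim25 and Dtx3l fell, by 0.45, 0.52 and 0.42 (edgeR adjusted p 0.0247, 0.0218 and 0.0271), and 5 members rose, while 12.3% of all genes were called. These 5 were Ifit3 (1.09), Cxcl10 (1.03), Rsad2 (0.85), Gbp2 (0.65) and Ifit2 (0.62), with edgeR adjusted p from 4.01e-04 to 0.0196. The difference between the series in this change was not tested.

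On the vitamin A-excess diet the members had no common direction in the fit with the series term, with a median log2 change of -0.01. The 4 that rose were Cxcl10, Ifit3, Gbp2 and Ifit2, and Irf9 fell (5 of 34, against 21.9% of all genes called, 11.6% higher and 10.4% lower). Cxcl10 was at 36.3, 22.2, 7.57, 19.9 and 17.7 CPM in sham replicates 1 to 5 and 75, 29.4, 25.1, 24.6 and 44 CPM in Glenn replicates 1 to 5. It rose by 1.35 (SE 0.352, edgeR adjusted p 0.00608), although sham replicate 1 stood above 3 of the 5 Glenn libraries. Gbp2 was at 296, 248, 136, 212 and 232 CPM in sham replicates 1 to 5 and 469, 392, 279, 271 and 332 CPM in Glenn replicates 1 to 5. Only sham replicate 1 was above a Glenn library, and Gbp2 rose by 0.96 (edgeR adjusted p 9.45e-04). Parp14, an ADP-ribosyltransferase, was the only member with no overlap (1 of 34 wholly lower and 0 wholly higher, against 7.75% and 8.59% of all genes). Its lowest sham and highest Glenn library were both at 111 CPM after rounding, and its fitted change, -0.15, did not pass the threshold.

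The excess diet depends on how the series is handled, since its sham group is of series A only and 3 of its 5 Glenn libraries are of series B. With no series term 1 member rose and 6 fell (27% of all genes called), and with series A alone 2 rose and 0 fell (13.6% of all genes called). With no series term 27 of 34 members were below 0. The median was then -0.27, the lowest of 11 alternatives, of which the highest was -0.0037. The Cxcl10 call was lost without Glenn excess replicate 1 (edgeR adjusted p 0.0651), and that of Irf9 without sham excess replicate 1 or Glenn excess replicate 2 (highest adjusted p 0.0919). Across diets, the interaction of operation and diet called 0 of 34 members (1 of all 16171 genes, 0.00618%), and 5 had an unadjusted p under 0.05 (Dtx3l, Mx2, Trim25, Mx1 and Bst2, lowest adjusted p 0.496, edgeR), against 5.72% of all genes. No member thus passed a test of a difference between diets in its response to the operation.

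**Figure D3:**
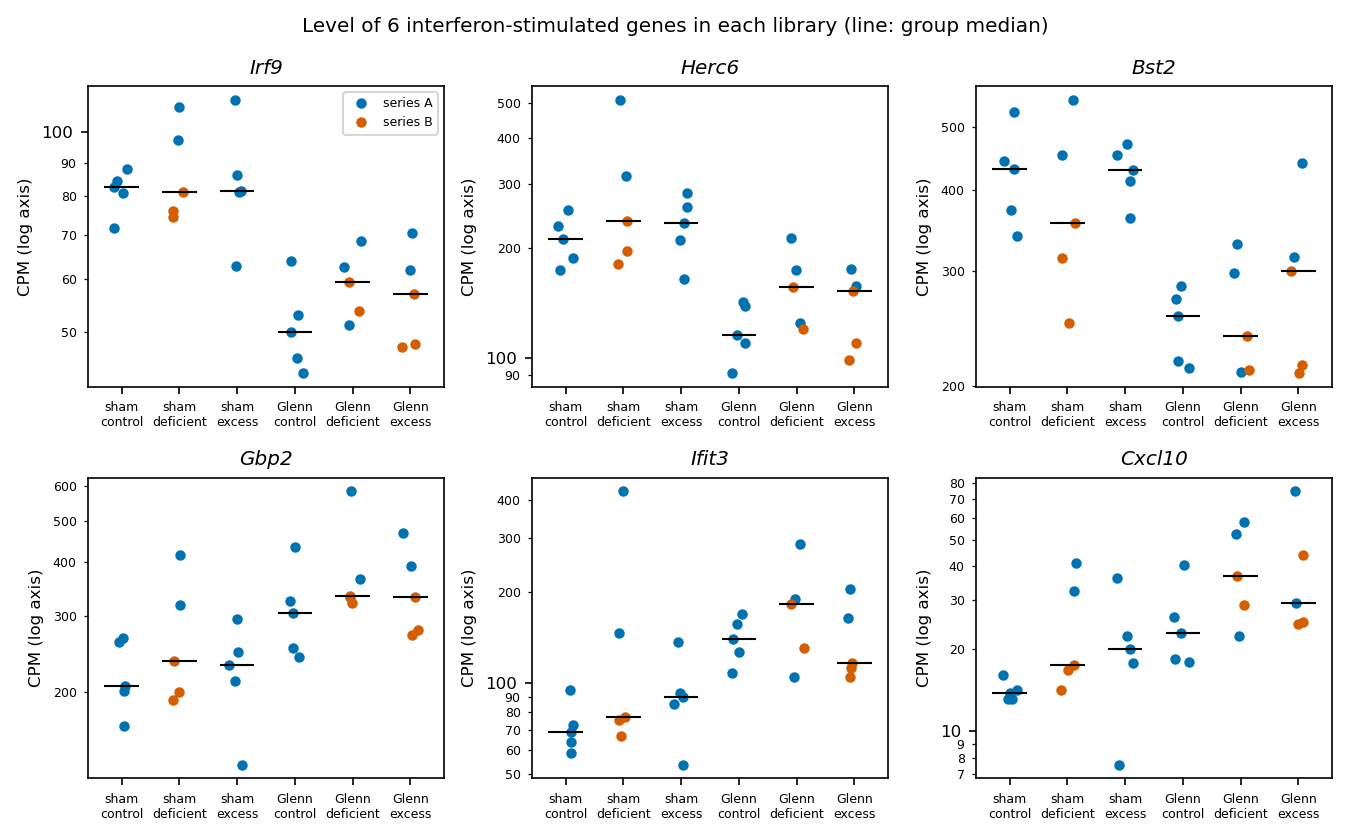
CPM (log axis) of Irf9, Herc6, Bst2, Gbp2, Ifit3 and Cxcl10 in each library by group, with series A in blue, series B in orange and a line at each group's median. The medians of Irf9, Herc6 and Bst2 are lower, and those of Gbp2, Ifit3 and Cxcl10 higher, in each Glenn group than in the sham group of the same diet.

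The second question was whether diet alone moved these genes. No diet comparison within an operation called any member. On the deficient diet after sham surgery, all 34 members had a positive log2 change against the control diet, with a median of 0.68, while 50.6% of all genes were below 0. Of the members 30 were higher at an unadjusted p under 0.05, as were 2.85% of all genes. The lowest edgeR adjusted p was 0.249, for Ifit3, and 0% of all genes were called. Ifit3 was at 146, 429, 67.1, 75.6 and 77.5 CPM on the deficient diet, against 58.8 to 95.1 CPM on the control diet. The 2 high libraries were those of series A, and the 3 of series B lay within the control range. The median change was 0.43 without sham deficient replicate 2, and 0.29 when a term for RT1-CE16 replaced the series. DESeq2 called 1 member here, Ifit3 (adjusted p 0.0426, with 0.0928% of all genes called). A fit of the compared groups alone called Cxcl10 and Parp9 (edgeR adjusted p 0.0012 and 0.0223, with 0.127% of all genes called).

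Among Glenn animals, all 34 members also had positive changes on the deficient diet (median 0.54, 24 at an unadjusted p under 0.05, as were 5.4% of all genes) and on the excess diet (median 0.52, 22 at that p, as were 7.46%). Both were set against the same 5 control-diet libraries, and 46.3% and 46.6% of all genes had changes below 0. The lowest edgeR adjusted p was 0.271 for the deficient diet (0.00618% of all genes called). For the excess diet (1.47% called) it was 0.067, for Bst2, which stood at 284, 272, 256, 218 and 213 CPM on the control diet and 439, 315, 209, 215 and 300 CPM on the excess diet. The groups overlapped, and the 2 highest were of series A. DESeq2 called Bst2 and Dtx3l for this comparison (adjusted p 0.0224 and 0.0306), and 3.64% of the genes to which it gave an adjusted p. In edgeR 4 members were called without Glenn control replicate 1 and 1 without Glenn control replicate 2 or Glenn deficient replicate 3, and with no series term the median was 0.15. The 3 comparisons of diets with a median above 0.5 set a group that holds series B libraries against one of series A alone, so they rest on the estimate of the series difference.

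Between the excess and control diets after sham surgery, all of series A, the median was 0.11 and 2 members had an unadjusted p under 0.05, Trim25 (-0.28) and Irf1 (0.37), against 11.1% of all genes (0.241% at the adjusted threshold). Their edgeR adjusted p were 0.19 and 0.252. Between the excess and deficient diets the median was -0.56 after sham surgery, with 34 of 34 members negative and 22 at an unadjusted p under 0.05 (3.18% of all genes were lower at that p, 49.8% were below 0 and 0.0124% were called). After Glenn surgery it was -0.03, with 0 members at that p, against 5.18% of all genes. Neither called a member in edgeR, and DESeq2 called Mx1 and Trim25 lower after sham surgery (adjusted p 0.047 for each, with 0.0742% of all genes called). The sham comparison too sets a group of series A alone against one that holds series B libraries, so it rests on the series estimate. Its median was -0.28 with no series term, and also -0.28 without sham deficient replicate 2.

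The third comparison was between the library series. In the fit that estimated the series beside the 6 groups, all 34 members had values below 0 for series B against A, with a median log2 difference of -0.59 against -0.01 for all genes, of which 51.8% were below 0. Of the members 15 were called lower and 0 higher (44.1%), while 1.64% of all genes were called in either direction and 0.934% lower. Ifih1 differed most, by -1.08 (SE 0.205, edgeR adjusted p 0.0091), followed among the called by Oas2 (-1.03), Ifit3 (-1.01), Irf7 (-0.95), Usp18 (-0.94) and Dhx58 (-0.80). Ifi44, an antiviral protein of the cytoplasm, differed by -0.77, Bst2 by -0.56 and Parp14 by -0.58 (edgeR adjusted p 0.0114, 0.0132 and 0.0132). Trim25, lower after Glenn surgery, differed by -0.09 between the series (edgeR adjusted p 0.638).

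The difference can be read in single libraries of the 3 groups that hold both series. Ifih1 was at 87.8 and 125 CPM in the series A and 33.4, 44.4 and 35.5 CPM in the series B libraries of the sham deficient group. It was at 56.8, 71.1 and 53.5 CPM against 39.8 and 35.2 CPM in the Glenn deficient group, and at 74.3 and 58.1 CPM against 38.7, 36.2 and 20.8 CPM in the Glenn excess group. All series B libraries were lower than all series A libraries of their group. Series B lay wholly below series A for 32 of 34 members in the sham deficient group (14% of all genes) and for 26 in the Glenn excess group (14%). In the Glenn deficient group this held for 4, Ifih1, Dtx3l, Parp14 and Gbp5 (13.6% of all genes), where series A replicate 3 was the lowest of the 5 libraries for 20 of 34 members.

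**Figure D4:**
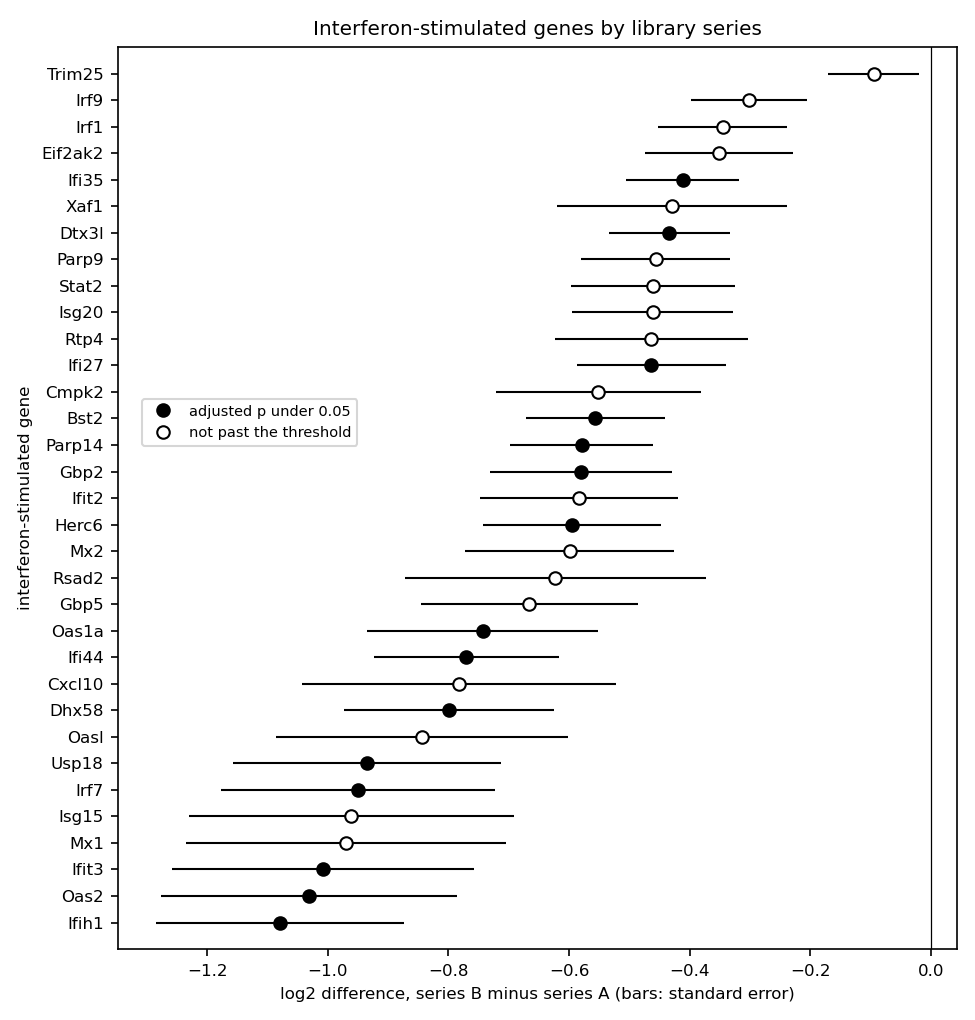
Log2 difference between library series (B minus A) for 33 tested members on the x axis, with standard errors, filled where the adjusted p was under 0.05 (Ifit1 is left out). All points lie below 0, from -0.09 for Trim25 to -1.08 for Ifih1.

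In the same 3 groups every series B library was RT1-CE16-high and every series A library RT1-CE16-low, so series and RT1-CE16 level cannot be told apart there. The control-diet groups, all of series A, hold both levels. Ifih1 was at 68.7 and 73.1 CPM in the 2 low and 61.3, 32 and 34.2 CPM in the 3 high libraries of the sham control group, and at 55.6, 66 and 41.8 CPM against 30.6 and 24 CPM in the Glenn control group. High libraries lay wholly below low ones for 7 of 34 members after sham (16.7% of all genes) and for Ifih1, Bst2 and Ifi35 after Glenn surgery (11.7%). When RT1-CE16 level replaced the series as a term, 15 members were lower in high libraries (6.53% of all genes were called), with a median of -0.42. With both terms in 1 fit, 0 members and 0% of all genes were called for the series (median -0.45, 34 of 34 negative, 6 at an unadjusted p under 0.05, against 5.31% of all genes), and Ifih1 alone for the RT1-CE16 level (-0.87, 1.05% of all genes called, median of the members -0.17). Sex, read from the Y-linked gene Ddx3y, called 0 members and 0.0804% of all genes (at an unadjusted p under 0.05, 5 members and 7.71% of all genes). Members had a median log2 difference of 0.15 for male minus female, with 2 of 34 below 0, against 49% of all genes.

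The series calls also rested on few libraries. With the replicate number as a block beside the series, 0 members and 0% of all genes were called, and the median of the members was -0.27. Series B occurs only among replicates 3 to 5, so number and series overlap. Without a block, the number of calls ran from 3 without Glenn excess replicate 1 and 4 without sham deficient replicate 2 to 25 without Glenn deficient replicate 3. It was 6 to 9 without Glenn deficient replicate 5 or 2, sham deficient replicate 3, 4 or 5, or Glenn excess replicate 4 or 3. Calls for Ifih1, Ifi44 and Parp14 were kept in each of the 30 fits that left out 1 library. Leukocyte and endothelial markers were compared too. In series B 1 of 15 leukocyte markers was lower (0.934% of all genes), and 0 of 10 endothelial markers were called (1.64% of all genes). Their sums were 83.8 to 164 and 80.2 to 120 CPM for leukocytes without Lyz2, and 6810 to 11500 and 7690 to 11700 CPM for endothelium, in series A and B.

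Within groups, 1 library was often the highest or lowest for most members. Sham deficient replicate 2 was the highest of its 5 libraries for 32 of 34 members, while it was the highest for 21.7% of all genes. Glenn excess replicate 1 led its group for 30 members (26.2% of all genes), sham excess replicate 1 for 29 (26%) and Glenn deficient replicate 2 for 29 (23.4%). At the other end, sham excess replicate 3 was the lowest of its group for 30 members (19.7% of all genes) and Glenn control replicate 3 for 24 (21.1%). These 4 leading libraries were all of series A and RT1-CE16-low, as is every library of the sham excess group. Sham control replicate 3, of series A but RT1-CE16-high, was the highest of its group for 19 of 34 members (21.4% of all genes).

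Sham deficient replicate 2 stood far above its group in several members. Its Mx1 level was 327 CPM against 48.6 to 134 CPM in the other 4 libraries, its Ifit3 level 429 against 67.1 to 146 CPM, and its Stat2 level 356 against 135 to 232 CPM. The summed leukocyte markers without Lyz2 were 98.4 CPM in this library, inside the range of 83.8 to 120 CPM of its group. Without TMM scaling the highest library of this group was the same for 34 of 34 members.

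Other genes of the interferon pathway were taken from lists by role, 112 genes of which 102 were in the table and 91 passed the filter. Averaged over diets, 53 of 91 were called after Glenn surgery, 37 lower and 16 higher (24.7% and 23.4% of all genes). Of 5 receptor genes 3 fell. Ifnar1 was at 401 to 585 CPM in sham libraries (median 448) and at 286 to 407 CPM in Glenn libraries (median 346), and fell by 0.43 (edgeR adjusted p 1.33e-07). Ifnar2 was at 198 to 246 CPM (median 219) and 138 to 191 CPM (median 164), with no overlap between the operations, and also fell by 0.43 (edgeR adjusted p 8.85e-10). The interferon gamma receptor genes had changes of -0.10 for Ifngr1 (edgeR adjusted p 0.161) and -0.19 for Ifngr2 (edgeR adjusted p 0.00313).

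Among sensors and adaptors 4 of 12 fell and 3 rose, near the shares of all genes (24.7% and 23.4%). Tbk1, the kinase that activates interferon regulatory factors below several sensors, was at 74.5 to 103 CPM in sham and 41.4 to 53.5 CPM in Glenn libraries. The operations did not overlap, and Tbk1 fell by 0.90 (edgeR adjusted p 1.13e-16). Tlr3, the endosomal sensor of double-stranded RNA, fell by 0.53 (edgeR adjusted p 8.97e-08). Of the ligands listed, 2 of 11 passed the filter, the cytokines Il6 and Tnf, neither of them an interferon. Il6 rose by 1.91 from a median of 1.06 to 4.52 CPM, and Tnf fell by 1.18 from 21.5 to 9.33 CPM (edgeR adjusted p 1.13e-09 and 3.94e-08).

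Further interferon-stimulated genes outside the 35 were also lower more often than higher after Glenn surgery. Of 46, 23 were lower and 9 higher, against 24.7% and 23.4% of all genes. Tnfsf10, the death ligand TRAIL, fell by 0.94, Casp1 by 0.55, Mlkl, the executor of necroptosis, by 0.53 and Trim21, an antibody receptor of the cytosol, by 0.45 (edgeR adjusted p 4.03e-13, 2.59e-08, 4.27e-08 and 3.02e-08). Cxcl9, a chemokine that shares its receptor with Cxcl10, rose by 1.32 from a median of 5.5 to 13.6 CPM, and Casp4, a sensor of bacterial lipopolysaccharide, by 0.54 (edgeR adjusted p 1.25e-08 and 4.29e-09). Chosen after their values were seen, the guanylate-binding genes Gbp4, Gbp1 and Gbp7 rose by 1.40, 1.37 and 0.54 (edgeR adjusted p 2.45e-07, 9.34e-06 and 7.66e-04).

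For the library series 23 of these 91 genes were lower in series B and 0 higher, while 0.934% of all genes were lower. Of the 23, 20 were among the 46 further interferon-stimulated genes. No receptor gene was called for the series (0 of 5), a count near the share of all genes called in either direction (1.64%).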

How the data were processed

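Salmon's estimated counts, 1 column per library, are what the authors deposited, per the submitters' processing notes and the table's name. Those notes also name FastQC, Trim Galore, Picard, STAR and the build mRatBN7.2 (rn7), and strandedness is not given in the sources used here. Per the labels' protocols, libraries were made with a SMART-Seq Ultra Low v4 kit. Counts were rounded, 13.6% of values not being whole. Salmon shares out reads between near-identical genes, so families such as Ifit, Mx, Oas and Gbp carry that uncertainty.

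With edgeR 4.0.16 in R 4.3.3, genes were filtered (filterByExpr, minimum count 10, minimum total 15), scaled by TMM and fitted in 1 quasi-likelihood model of the 6 groups and the library series, over all 30 libraries. Benjamini-Hochberg adjustment ran over 16171 genes, and calls are at an adjusted p under 0.05. Standard errors were derived from each log2 change and its F statistic. The members and lists were chosen with earlier results of these data known. Values by library were given for members with the smallest adjusted p over the contrasts, for the leading series calls and for members with 1 library far from its group. Of other pathway genes up to 12 with the smallest adjusted p and a mean of at least 1 CPM were named, with the 4 receptors, and 1 gene of that rule is not reported here. Alternatives used DESeq2 1.42.0 and limma 3.58.1 (voom), no filter, other terms and subsets, and each library left out. The edgeR, voom and DESeq2 fits were also run on simulated counts in which few genes changed with the operation and none with series or diet. Only the mean over diets was examined there, so the series term and the diet comparisons were not tested. Promoters came from RefSeq's GRCr8 table by symbol.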

Additional observations from a re-analysis of the deposited data

Results flagged for a closer look

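In a group of 5 libraries, a library was singled out where its gap to the nearest other, divided by the group's range, exceeded Dixon's 95% critical value of 0.71. Of 234 sets of gene and group, 9 did so, and about 1 in 20 sets (11.7) would by chance. Ifit3 in sham deficient replicate 2 had a gap of 0.781 of the range, at 429 CPM against 67.1 to 146 CPM in the other 4. Gbp2 in Glenn deficient replicate 2 had the widest gap, 0.833, at 585 CPM against 323 to 367 CPM, and Ifit2 in the same library one of 0.71, just above the critical value before rounding, at 405 CPM against 251 to 296 CPM. Ifit2 also stood apart in sham control replicate 3, with a gap of 0.742, at 231 CPM against 169 to 185 CPM. In Glenn excess replicate 1, Irf1 was at 780 CPM against 408 to 504 CPM (gap 0.742) and Eif2ak2 at 108 CPM against 72.8 to 83 CPM (gap 0.713). Ifih1 was low in sham excess replicate 3, at 66.3 CPM against 74 to 76.7 CPM (gap 0.738). Among the receptor genes, Ifngr2 was low in sham excess replicate 4, at 39.2 CPM against 49.9 to 53 CPM (gap 0.776), and Ifngr1 high in sham excess replicate 1, at 365 CPM against 291 to 310 CPM (gap 0.753).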

How the results depend on the processing

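Averaged over diets, 19 of the 21 called members kept their call in all 10 alternatives and 19 in all 30 fits without 1 library, and no called change took the other sign. The number falling ran from 15 to 19 and that rising from 4 to 5 on leaving out 1 library, and 2 rose with series A alone. Counts of other comparisons moved by more than 1.5 times as follows. On the control diet, 2 members rose as reported, 0 with no series term or with RT1-CE16 in its place, and 1 with series A alone, limma voom, no filter, or both terms. Without 1 library 0 to 3 rose, and 9 falls became 14 with the RT1-CE16 term. On the deficient diet, the 17 falls became 9 with no series term, 11 with only the compared groups and 3 with series B alone, and 8 to 20 without 1 library. The 0 rises became 1 with DESeq2 or limma voom and 5 with series B alone, and 0 to 2 without 1 library. On the excess diet, the 4 rises became 1 with no series term and 2 with series A alone, with the RT1-CE16 term or with only the compared groups. The 1 fall became 6 with no series term, 0 with series A alone or only the compared groups, and 0 to 1 without 1 library. DESeq2 called 1 member higher for deficient against control diet after sham surgery, and edgeR called 2 with only the compared groups. DESeq2 also called 2 lower for excess against deficient diet after sham surgery. For excess against control diet after Glenn surgery DESeq2 called 2 higher, and edgeR 0 to 4 without 1 library. The 15 members lower in series B became 25 with DESeq2, 9 with no filter, 0 with both terms and 3 to 25 without 1 library. The median change moved by more than the spread between replicates for the deficient diet (-0.84 with series A alone), for deficient against control diet after sham surgery (0.29 with the RT1-CE16 term) and for excess against control diet after Glenn surgery (0.15 with no series term). The cause was not tested. The fits with both terms and with series B alone were chosen after seeing the data. The interaction was not run in DESeq2, and the mean over diets has no fit with only the compared groups.

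Groups share replicate numbers, which the labels do not explain. They were not taken as pairs in the main fit. Of 75 pairs of the same number, 38 had correlated deviations over 0.1 (median 0.104, range -0.25 to 0.29), which does not settle whether numbers are blocks. As a hint from the data that numbers share something, 15 of 30 libraries correlated best with their own number, and replicate 1 was male and RT1-CE16-low in all 6 groups. With the replicate block, 15 members fell on the control diet, 2 rose on the deficient diet and 4 fell on the excess diet. In either direction 25.9%, 27.9% and 21% of all genes were called on these diets. For the series, which has B libraries only among replicates 3 to 5, 0 members and 0% of all genes were called. Ifit1 and Zbp1 had too few counts for a precise value at this depth.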
